A study of Mus musculus with 24 samples.

Results

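The 38 genes described here carry cells from G2 into and through mitosis. They are a list of named regulators and structural parts of the mitotic apparatus, drawn up by function but with earlier results of these data known, and all 38 of the 55487 genes listed in the deposited expression table were found and passed the filter on low values (14541 genes tested). The RNA came from wild-type C2C12 cells, a mouse skeletal muscle line, differentiated into myotubes under 5 % O2 and labelled as day 5 of differentiation. Cultures were kept for 2 h under 5 % O2 or 1 % O2. They were harvested unstimulated (5 % CTRL, 1 % CTRL) or directly after bouts of electrical stimulation that followed the 2 h (5 % STIM, 1 % STIM). There were 6 cultures per group and 24 libraries in all. Per the methods, medium was replaced before and after stimulation. Whether unstimulated cultures were held as long and handled alike is not stated. All groups share 1 cell line, so the replicates are separate cultures and not separate animals. The question addressed is which mitotic genes were higher and which lower under 1 % O2, where their mean moved little in the deposited scaling.

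Entry into mitosis is driven by CDK1 bound to cyclin B or cyclin A, switched on by the CDC25 phosphatases and held back by the WEE1 and MYT1 kinases. Polo-like and Aurora kinases then build the spindle and correct its attachments, the spindle checkpoint holds the anaphase-promoting complex (APC/C, a ubiquitin ligase) until every kinetochore is attached, and CDC20 activates that ligase to destroy cyclin B and release the sister chromatids. Myotubes have left the cell cycle and do not divide, so in differentiated cultures transcripts of these genes are usually low and can come from myotubes or from mononucleated cells that stayed in the dish. In bulk RNA fewer cells of a type and less RNA per cell cannot be told apart.

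Libraries held between 26541858 and 28173745 reads, and values are normalized counts (reads per gene divided by the size factor of the library). The size factors lay between 0.955 and 0.992 in the 5 % O2 libraries and between 1.02 and 1.05 in the 1 % O2 libraries. Slc2a1, the glucose transporter that responds to hypoxia, rose from 2813 to 12888 in unstimulated myotubes under 1 % O2 (log2 fold change 2.20 ± 0.03, SE) and Vegfa, the vascular growth factor, rose from 8067 to 11374 (0.50 ± 0.03). In stimulated myotubes Slc2a1 rose from 2614 to 8337 (1.67 ± 0.03), but Vegfa fell from 9133 to 8587 (-0.09 ± 0.03, adjusted p = 0.0169). The cultures carried the myotube label in their RNA: the summed normalized count of 10 myotube markers lay between 440900 and 559430 in every library. By group it was 510710 to 559430 in 5 % CTRL and 448680 to 490370 in 1 % CTRL, without overlap. In stimulated libraries it was 460290 to 533030 (5 % O2) and 440900 to 488620 (1 % O2). The summed count of 4 fibroblast markers was 312 to 354 in 5 % CTRL and 205 to 266 in 1 % CTRL, without overlap, and 317 to 405 in 5 % STIM and 286 to 345 in 1 % STIM. Of these, Pdgfra (-0.48) and Dpt (-0.41) fell under 1 % O2 in unstimulated myotubes and Dpt (-0.26) in stimulated myotubes, while Thy1 and Lum were too low to be tested. Of 3 adipocyte markers, Plin1 was at 0 in all 24 libraries, Adipoq was at or near 0, and Pparg was at 81.6 to 149.6. Pparg did not pass the test between O2 levels and rose with stimulation (0.29 under 5 % O2, 0.33 under 1 % O2). Markers of undifferentiated myoblasts or reserve cells moved with O2, but not as a block. Pax7 (log2 fold change 0.69) and Myf5 (0.63) rose under 1 % O2 in unstimulated myotubes, Cd34 fell (-0.31), Sdc4 did not pass the test (0.01), Pax3 was too low to be tested, and the sum of the 5 markers was 9364 to 10020 in 5 % CTRL and 9089 to 9478 in 1 % CTRL. These sums were lower in stimulated libraries, at 8729 to 9047 (5 % O2) and 7129 to 7918 (1 % O2). In unstimulated myotubes under 1 % O2 Myog, the myotube transcription factor, fell (-0.66), 1 of 7 among the 10 myotube markers that did, beside 30.5 % of all genes tested. The part of these markers in the results below was not tested.

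1 library stood apart from its group. In 1 % CTRL replicate 1, the deviation from the mean of all libraries grew with exon length (slope 0.0945 log2 units per doubling of length, against -0.0367 to -0.0125 in the other 5 libraries of its group). The next steepest slope was that of 1 % STIM replicate 3 (0.055). The numbers of mitotic genes called in each O2 comparison and with stimulation under 1 % O2 are also given with these libraries left out. Genes called in both O2 comparisons and genes of the further lists were counted with them alone.

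In unstimulated myotubes the 38 genes split. Under 1 % O2, 13 genes rose, 10 genes fell and 15 did not pass the test (limma over all 14541 genes, Benjamini-Hochberg adjusted p under 0.05). DNA topoisomerase Top2a, the checkpoint kinase Bub1, the kinases Aurkb and Cdk1, and the spindle protein Nusap1 rose most, whereas the centromeric histone Cenpa, the B-type cyclins and the APC/C partners Cdc20 and Ube2c fell most. The median log2 fold change of the 38 genes was 0.0016, beside 0.0015 for all genes tested. Among all genes tested 29.4 % rose and 30.5 % fell in this comparison (59.9 % in either direction), so that the share of mitotic genes called, 60.5 %, lay near the background. The values of the 2 groups did not overlap for 9 mitotic genes that were higher and 3 that were lower, beside 18.2 % and 19.9 % of all genes tested. Without 1 % CTRL replicate 1 the counts were 12 higher and 12 lower (of all genes 8955 were then called, 4468 of them higher).

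**Figure D1:**
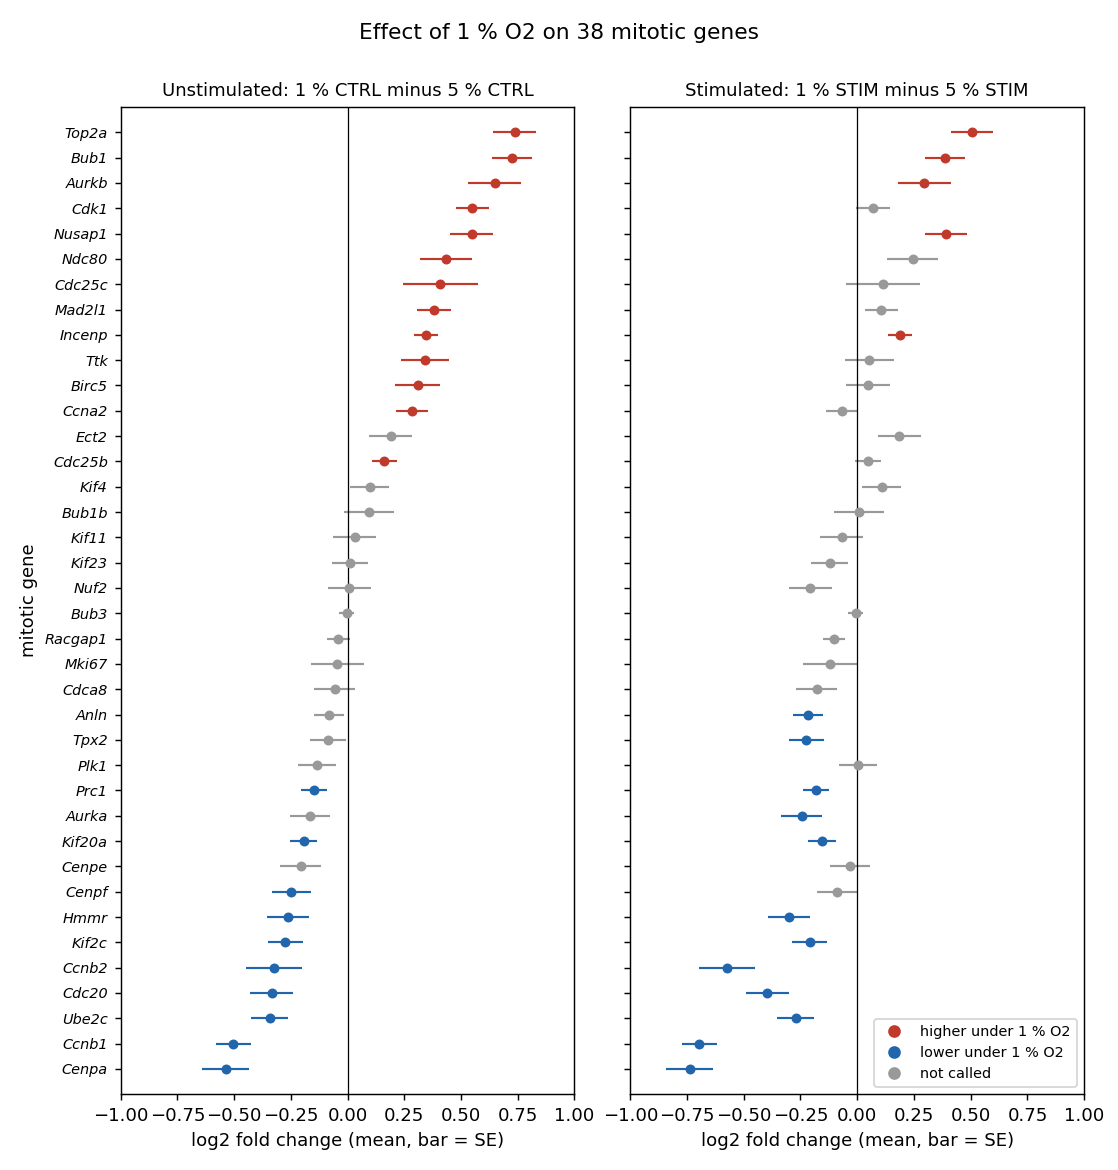
Log2 fold change of each of the 38 mitotic genes under 1 % O2 against 5 % O2 in unstimulated (left) and stimulated (right) myotubes. Points are estimates of the limma fit (6 libraries per group), bars are SE, red and blue mark genes that passed the test, and both panels keep the order of the unstimulated values, from 0.74 for Top2a to -0.54 for Cenpa.

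The balance of rises and falls moved with the scaling of libraries. When every library was rescaled to the same total, the log2 fold changes of all genes shifted up by a median of 0.08 in this comparison, and 15 mitotic genes were then higher and 5 lower. The calls of all genes shifted as well: of 9048 genes called after rescaling, 5670 were higher, against 4271 of 8708 before it. Cenpa, Ccnb1, Ube2c, Cdc20 and Kif2c remained among the genes that fell, while Ccnb2, Hmmr, Cenpf, Kif20a and Prc1 no longer passed the test. All 13 genes that rose also rose after rescaling, and small negative differences turned positive with the shift, those of Bub3 (0.076, adjusted p = 0.0419) and Mki67 among them.

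Promoters are shown for 3 genes that rose and 3 that fell, because the letters of cell cycle elements in them can be read beside the opposite signs. Each line holds the 200 bases before the RefSeq start site (build GRCm38.p6), 5′ to 3′ on the strand of the gene. Capitals mark the cell cycle homology region (CHR, TTTGAA or TTTAAA, bound by the MuvB complexes that repress or activate G2/M genes) and the CCAAT box (bound by NF-Y), in either orientation.
Top2a (rose), chr11:99024190-99024389, minus strand: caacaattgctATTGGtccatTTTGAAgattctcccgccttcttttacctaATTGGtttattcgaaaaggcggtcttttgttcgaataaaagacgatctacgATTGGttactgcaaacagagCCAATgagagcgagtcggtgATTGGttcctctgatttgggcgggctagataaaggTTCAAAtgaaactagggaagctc
Bub1 (rose), chr2:127831860-127832059, minus strand: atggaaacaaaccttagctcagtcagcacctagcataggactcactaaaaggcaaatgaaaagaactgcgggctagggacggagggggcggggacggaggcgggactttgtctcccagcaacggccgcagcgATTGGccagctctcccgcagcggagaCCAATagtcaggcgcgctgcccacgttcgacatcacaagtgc
Cdk1 (rose), chr10:69352913-69353112, minus strand: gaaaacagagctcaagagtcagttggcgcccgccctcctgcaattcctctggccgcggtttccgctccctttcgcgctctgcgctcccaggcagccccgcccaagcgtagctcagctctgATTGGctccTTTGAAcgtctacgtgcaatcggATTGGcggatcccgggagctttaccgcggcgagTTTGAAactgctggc
Cenpa (fell), chr5:30666686-30666885, plus strand: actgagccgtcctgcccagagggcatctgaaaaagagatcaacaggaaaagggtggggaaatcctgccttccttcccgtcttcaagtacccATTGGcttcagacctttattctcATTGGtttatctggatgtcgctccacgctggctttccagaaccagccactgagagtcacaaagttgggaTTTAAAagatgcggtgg
Ccnb1 (fell), chr13:100786487-100786686, minus strand: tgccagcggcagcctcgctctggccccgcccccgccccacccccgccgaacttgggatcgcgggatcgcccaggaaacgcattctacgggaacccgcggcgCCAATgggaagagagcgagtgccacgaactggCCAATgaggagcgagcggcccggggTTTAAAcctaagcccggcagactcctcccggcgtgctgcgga
Cdc20 (fell), chr4:118437344-118437543, minus strand: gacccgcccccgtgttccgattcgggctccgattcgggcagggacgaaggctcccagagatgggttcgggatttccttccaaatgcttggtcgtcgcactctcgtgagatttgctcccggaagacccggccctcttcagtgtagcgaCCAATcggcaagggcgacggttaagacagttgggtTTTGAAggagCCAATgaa

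Motifs were then searched on both strands from 250 bases before to 50 after the start, in 32 of the 38 mitotic genes and 27025 genes in all (Incenp, Ccna2, Tpx2, Aurkb, Cdc25c and Kif20a were not searched). CHR letters were found in 27 of the 32 mitotic genes (84.4 %), beside 30.6 % of all genes. They were found in 9 of the 9 genes that fell in unstimulated myotubes, 13 of 14 that did not pass the test and 5 of 9 that rose. Of the genes not searched, Incenp, Ccna2, Aurkb and Cdc25c rose and Kif20a fell. The search thus covered 9 of the 13 genes that rose and 9 of the 10 that fell. The 4 genes that rose without CHR letters were Bub1, Cdc25b, Mad2l1 and Nusap1, and the 1 uncalled gene without them was Nuf2. In the shorter window from 100 bases before to 50 after the start, CHR letters were in 8 of 9 genes that fell and 4 of 9 that rose (78.1 % of the mitotic genes, 14.7 % of all genes). CCAAT letters were in 25 of 32 mitotic genes (78.1 %, against 41.1 % of all genes), with 8 of 9 that fell and 5 of 9 that rose. E2F-like letters (TTTGGCGC, TTTCCCGC or TTTCGCGC) were in 1 mitotic gene, Cdk1 (3.12 %, against 2.12 %). The core letters of the hypoxia response element (ACGTG or GCGTG) were in 23 of 32 (71.9 %, against 46.7 % of all genes), with 6 of 9 that rose and 7 of 9 that fell. None of these motifs contains another, and these are matches of letters only.

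Cyclins and the CDK1 switch moved apart. Cdk1, the mitotic kinase itself, rose in unstimulated myotubes under 1 % O2 from a normalized count of 352.3 ± 27.5 (SD, n = 6 here and below) to 516.6 ± 47.5 (log2 fold change 0.55 ± 0.07, SE, adjusted p = 9.60e-08), and all 6 libraries under 1 % O2 lay above all 6 under 5 % O2. Its partner Ccnb1, cyclin B1, fell. Ccnb1 had a lowest, median and highest value of 379.2, 434.2 and 456.4 in 5 % CTRL and of 256.0, 297.6 and 362.1 in 1 % CTRL, so the groups did not overlap (-0.50 ± 0.08, adjusted p = 1.06e-06). The second B-type cyclin, Ccnb2, fell from 126.3 ± 23.7 to 99.8 ± 11.6 (-0.32 ± 0.12, adjusted p = 0.0239) with overlapping groups, and this call was lost without any 1 of 4 libraries (5 % CTRL replicate 1 or 4, 1 % CTRL replicate 3 or 5, adjusted p = 0.0563 to 0.0812). Ccna2, cyclin A2, which acts from S phase into G2, went the other way and rose from 573.2 ± 16.6 to 700.9 ± 67.2 (0.28 ± 0.07, adjusted p = 0.000959).

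The phosphatases that activate CDK1 both rose, from very different levels. Cdc25b rose from 566.9 ± 52.7 to 633.5 ± 43.7 (0.16 ± 0.06, adjusted p = 0.0135). Cdc25c was the lowest of the 38 genes and rose from 32.91 ± 5.12 to 44.05 ± 6.84 (0.41 ± 0.16, adjusted p = 0.0306). The call of Cdc25b was lost without 5 % CTRL replicate 3 (adjusted p = 0.0555). That of Cdc25c was lost without any 1 of 5 libraries (5 % CTRL replicate 1, 4 or 6, 1 % CTRL replicate 1 or 5, adjusted p = 0.0504 to 0.0741).

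The 3 mitotic kinases did not move together. Aurkb, the catalytic subunit of the chromosomal passenger complex, rose from 107.6 ± 18.6 to 168.8 ± 26.2 (0.65 ± 0.12, adjusted p = 1.28e-05) without overlap. Aurka, the centrosome and spindle pole kinase, was at 249.6 ± 20.7 and 222.8 ± 24.1 (-0.17 ± 0.09, adjusted p = 0.105), and Plk1, the polo-like kinase, at 234.3 ± 27.6 and 212.6 ± 16.3 (-0.13 ± 0.08, adjusted p = 0.169), so neither passed the test (Aurka narrowly did without 5 % CTRL replicate 6, at -0.21). The partners of AURKB in the passenger complex are the scaffold INCENP, survivin (Birc5) and borealin (Cdca8). Incenp (0.35 ± 0.05) and Birc5 (0.31 ± 0.10) rose as Aurkb did, whereas Cdca8 had a difference of -0.06 ± 0.09 and did not pass the test.

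Checkpoint kinases and the APC/C partners lay on opposite sides. Bub1, which recruits checkpoint proteins to kinetochores, had a lowest, median and highest value of 155.2, 161.5 and 170.8 in 5 % CTRL and of 237.9, 253.0 and 348.2 in 1 % CTRL. The groups lay far apart, and the highest value came from 1 % CTRL replicate 1 (0.72 ± 0.09, adjusted p = 1.14e-08; 0.65 without that library). Mad2l1, the inhibitor of CDC20, rose from 386.6 ± 36.9 to 504.9 ± 62.3 (0.38 ± 0.07), and Ttk, the kinase at the top of the checkpoint, from 132.7 ± 15.7 to 168.7 ± 22.3 (0.34 ± 0.11). The pseudokinase Bub1b did not pass the test (0.10 ± 0.11). Bub3, the shared binding partner of both BUB proteins, was at 1680.0 ± 75.9 and 1674.3 ± 54.8 (95 % confidence interval of the log2 difference -0.07 to 0.06), a difference of -0.0043 that became 0.076 after rescaling.

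Cdc20, the activator that the checkpoint restrains, fell from 258.9 ± 23.1 to 205.5 ± 20.1 (-0.33 ± 0.09, adjusted p = 0.00296), without overlap. Ube2c, the ubiquitin-conjugating enzyme of the APC/C, fell from 242.8 ± 18.2 to 191.2 ± 15.8 (-0.34 ± 0.08, adjusted p = 0.000396). Ube2c overlaps Tnnc2, a highly expressed muscle gene on the opposite strand, over 22.8 % of its exon bases, and the counting, run with default RSEM parameters, did not use strand, so reads of the shared part cannot be told apart. Tnnc2 itself had means of 19030 and 19767 in the 2 groups and did not pass the test.

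At the chromosome, the kinetochore and the spindle, single genes moved in each direction. Top2a, which decatenates sister chromatids, had a lowest, median and highest value of 1171, 1264 and 1383 in 5 % CTRL and of 1796, 1966 and 2881 in 1 % CTRL, the largest rise of the 38 genes (0.74 ± 0.09, adjusted p = 5.19e-07; 0.64 without 1 % CTRL replicate 1, which held the highest value). Mki67, the proliferation antigen that coats mitotic chromosomes, was at 1250 ± 113 and 1239 ± 324 (-0.04 ± 0.12, adjusted p = 0.766), with the wide spread of 1 % CTRL again from replicate 1. Cenpa, the histone variant that marks centromeres, had a lowest, median and highest value of 125.8, 147.3 and 160.3 in 5 % CTRL and of 78.0, 104.0 and 119.0 in 1 % CTRL, the largest fall (-0.54 ± 0.10, adjusted p = 3.55e-05). Ndc80, the microtubule-binding subunit of the outer kinetochore, rose from 136.3 ± 9.3 to 186.9 ± 36.7 (0.43 ± 0.11, adjusted p = 0.00141), but its direct partner in the same complex, Nuf2, did not pass the test (0.01 ± 0.09). Cenpf, a large kinetochore protein, fell (-0.25 ± 0.09).

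Nusap1, a protein that bundles spindle microtubules, rose from 200.3 ± 21.4 to 295.3 ± 52.4 (0.55 ± 0.09, adjusted p = 7.01e-06). The other spindle and midzone proteins were lower or uncalled: Hmmr (-0.26 ± 0.09) and Prc1 (-0.15 ± 0.06) fell, and Tpx2 did not pass the test (-0.09 ± 0.08). The call of Hmmr was lost without 1 % CTRL replicate 6 (adjusted p = 0.0522). That of Prc1 was lost without 5 % CTRL replicate 4 or without any of 1 % CTRL replicates 2, 3, 4 and 6 (adjusted p = 0.0528 to 0.0781). Of the 6 kinesins, the depolymerase Kif2c fell from 235.3 ± 18.4 to 194.3 ± 13.7 (-0.27 ± 0.08, adjusted p = 0.00272) and Kif20a, a kinesin of the central spindle, fell by 0.19 ± 0.06 on the log2 scale. Kif11, Kif23, Kif4 and Cenpe did not pass the test, and neither did Anln, Ect2 and Racgap1 of the cytokinesis group (-0.08 to 0.19).

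**Figure D2:**
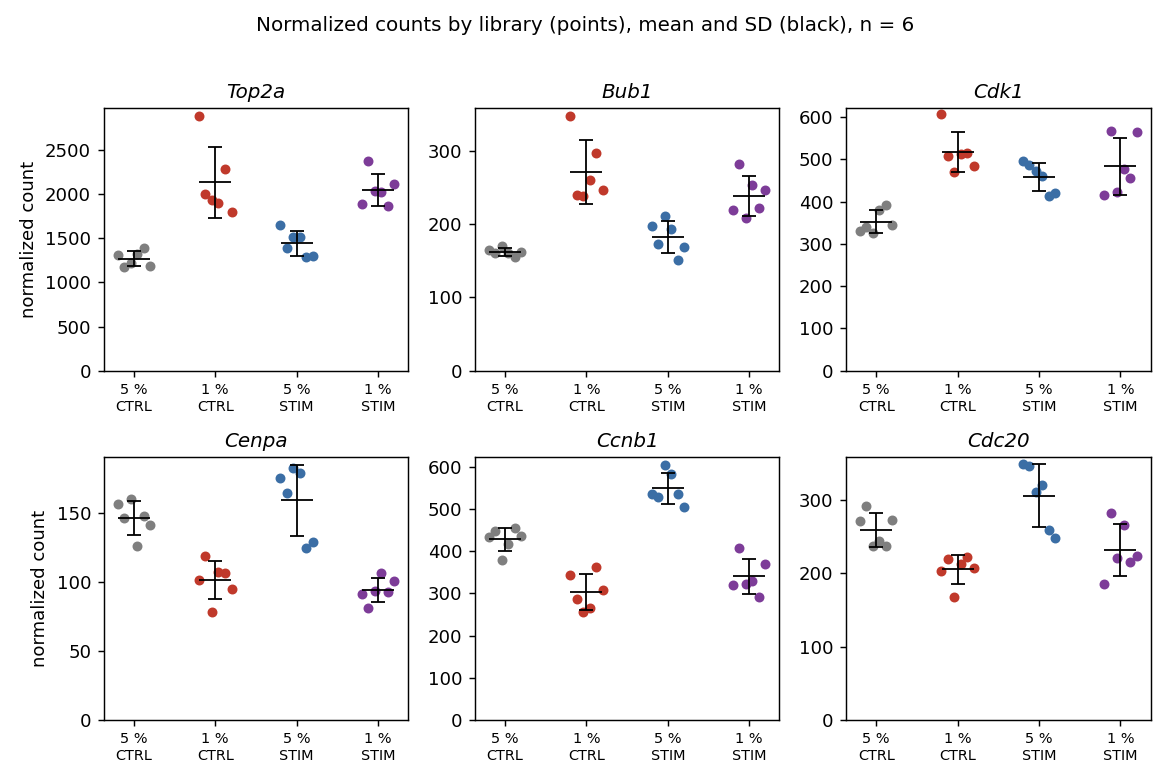
Normalized counts (y axis, from 0) of 3 mitotic genes that rose (top) and 3 that fell (bottom) under 1 % O2 in unstimulated myotubes, for each of the 24 libraries by group (x axis). Points are libraries, black bars are mean and SD (n = 6), and the 5 % CTRL and 1 % CTRL points of all 6 genes are separate, for example 155 to 171 and 238 to 348 for Bub1.

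In stimulated myotubes more of these genes fell than rose under 1 % O2. Between 1 % STIM and 5 % STIM, which share no library with the unstimulated groups, 5 genes rose (Top2a, Bub1, Nusap1, Aurkb and Incenp) and 12 fell. All genes tested gave 29 % higher and 28.4 % lower in this comparison (57.4 % in either direction), and 44.7 % of the mitotic genes were called. The groups did not overlap for 1 gene that was higher (Top2a) and 2 that were lower (Ccnb1 and Cenpa), beside 18.7 % of all genes in each direction (37.3 % together). Without 1 % CTRL replicate 1 and 1 % STIM replicate 3 the counts were 7 higher and 12 lower (of all genes 8428 were called, 4236 of them higher). After rescaling to the same total, with a median shift of 0.07, they were 8 higher and 6 lower (Cenpa, Ccnb1, Ccnb2, Cdc20, Ube2c and Hmmr). Of all genes 8648 were called after rescaling, 5466 of them higher, against 8346 and 4210 before it.

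Among the genes that fell, Cenpa went from 159.2 ± 25.8 to 94.3 ± 8.6 (-0.74 ± 0.10, adjusted p = 2.12e-07), with a lowest, median and highest value of 124.7, 170.0 and 182.7 in 5 % STIM and of 81.3, 92.9 and 106.7 in 1 % STIM. Ccnb1 went from 549.5 ± 37.6 to 340.4 ± 41.4 (-0.70 ± 0.08, adjusted p = 2.41e-09), with 504.6, 536.5 and 605.8 in 5 % STIM and 292.7, 325.6 and 407.5 in 1 % STIM. Both genes lay lower in all 6 libraries under 1 % O2 than in any under 5 % O2. Ccnb2 fell from 151.2 ± 18.9 to 102.4 ± 21.5 (-0.57 ± 0.12), Cdc20 from 305.9 ± 43.2 to 232.2 ± 35.5 (-0.40 ± 0.09), Ube2c from 218.9 ± 22.5 to 181.5 ± 22.4 (-0.27 ± 0.08) and Kif2c from 256.2 ± 19.4 to 222.7 ± 31.5 (-0.21 ± 0.08). Hmmr, Prc1 and Kif20a fell here as they did without stimulation, and Aurka (-0.25 ± 0.09), Tpx2 (-0.22 ± 0.08) and Anln (-0.22 ± 0.07) passed the test in stimulated myotubes. Some of these smaller falls rested on single libraries. The call of Aurka was lost without 5 % STIM replicate 2 or 1 % STIM replicate 1 or 5 (adjusted p = 0.0595 to 0.0687). That of Kif2c was lost without 5 % STIM replicate 1 or 1 % STIM replicate 1 or 5 (0.0537 to 0.0747), and that of Kif20a without 5 % STIM replicate 1 or 3 or 1 % STIM replicate 1 or 5 (0.0658 to 0.0966).

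Among the genes that rose, Top2a went from 1441 ± 139 to 2046 ± 183 (0.51 ± 0.09, adjusted p = 7.79e-05), with a lowest, median and highest value of 1291, 1447 and 1645 in 5 % STIM and of 1860, 2024 and 2366 in 1 % STIM. Bub1 went from 182.5 ± 22.01 to 238.6 ± 27.3 (0.39 ± 0.09, adjusted p = 0.000345), with 151.3, 182.8 and 211.0 in 5 % STIM and 208.9, 234.0 and 282.1 in 1 % STIM, an overlap of 1 library on each side (5 % STIM replicate 3 and 1 % STIM replicate 3). Nusap1 rose from 231.6 ± 8.3 to 305.9 ± 40.3 (0.39 ± 0.09), Incenp by 0.19 ± 0.05 and Aurkb from 117.1 ± 20.2 to 143.3 ± 18.4 (0.29 ± 0.12, adjusted p = 0.0305), a call lost without any 1 of 7 libraries (5 % STIM replicates 3 to 6, 1 % STIM replicates 2, 4 and 6, adjusted p = 0.0550 to 0.0837). Cdk1, at 458.6 ± 34.1 and 484.2 ± 67.7, did not pass the test (0.07 ± 0.07), and neither did Ndc80 at 137.5 ± 22.9 and 162.7 ± 24.8 (0.24 ± 0.11, adjusted p = 0.0669). Ccna2, at 691.2 ± 78.1 and 660.0 ± 77.5, had a difference of -0.07 ± 0.07 (0.0033 after rescaling). Plk1 was at 244.6 ± 21.5 and 245.9 ± 33.4, and Mki67 at 1358 ± 71 and 1255 ± 137. Both phosphatases were also within the spread of the replicates, Cdc25b at 615.9 ± 33.9 and 636.5 ± 38.5 and Cdc25c at 42.50 ± 11.97 and 45.18 ± 8.10. Bub3, at 1664 ± 71 and 1654 ± 38, had a difference of -0.0074 (0.063 after rescaling). None of these genes passed the test.

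Set side by side, 5 genes rose in both O2 comparisons, 9 fell in both (Cenpa, Ccnb1, Ccnb2, Cdc20, Ube2c, Hmmr, Kif2c, Kif20a and Prc1), and 0 moved in opposite directions. The sign was the same for 33 of 38 mitotic genes, beside 11949 of all 14541 genes. How many of all genes passed in both comparisons was not counted. The 5 and 9 therefore have no background beside them and are not read as particular to the mitotic genes. Across the 38 genes the log2 fold changes of the 2 comparisons had a Pearson r of 0.90 and a Spearman rho of 0.91, beside 0.77 and 0.80 across all 14541 genes. These are descriptions across genes, which are not independent, and in both comparisons the 1 % O2 libraries carried the higher size factors. The 13 genes that rose in unstimulated myotubes had a median log2 fold change of 0.41 there and 0.11 in stimulated myotubes, and the 10 that fell had medians of -0.30 and -0.29. Since the genes were sorted by their unstimulated values, a smaller value in the other comparison is favoured for both sets.

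Stimulation moved few of these genes past the test. Under 5 % O2, 3 mitotic genes rose with stimulation and 0 fell, beside 9.44 % and 12 % of all genes tested (21.4 % in either direction). These were CDK1 and its partners: Cdk1 rose from 352.3 to 458.6 (0.38 ± 0.07, adjusted p = 0.000226), Ccnb1 from 428.4 to 549.5 (0.36 ± 0.08, adjusted p = 0.000723) and Ccna2 from 573.2 to 691.2 (0.26 ± 0.07, adjusted p = 0.00735). The difference was positive for 34 of 38 genes with a median of 0.15, against -0.01 for all genes tested, and the groups did not overlap for 5 genes, all higher (the same 3, Nusap1 and Prc1), beside 5.64 % of all genes higher and 5.44 % lower. The number called depended on the fit. It was 18 when the length slope of the libraries entered as a covariate, 14 when only the 2 groups were fitted, 11 after rescaling and 5 with DESeq2 or voom, and leaving out 1 library gave 3 to 7, with 5 without 5 % CTRL replicate 1 or 4, 6 without 5 % STIM replicate 5 and 7 without 5 % STIM replicate 6. Of all genes tested, 1372 were higher in the fit reported. The alternatives gave 1725 (length slope), 1521 (2 groups), 1860 (rescaling), 1399 (DESeq2), 1405 (voom) and 1185 to 1345 (1 library left out).

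Under 1 % O2, stimulation raised 1 mitotic gene past the test and lowered 0, beside 11.5 % and 10.8 % of all genes (22.3 % in either direction). That gene was Cenpe, the kinesin that brings chromosomes to the spindle equator, which went from 422.4 ± 75.2 to 522.0 ± 67.4 (0.31 ± 0.09, adjusted p = 0.0121). The count was 0 when the 2 groups were fitted alone. It was 5 without both 1 % CTRL replicate 1 and 1 % STIM replicate 3, 6 without 1 % CTRL replicate 1 alone, 4 without 1 % STIM replicate 1, and 2 without 1 % CTRL replicate 5 or 1 % STIM replicate 4. Of all genes tested, 1668 were higher in the fit reported and 1491 with the 2 groups alone. Leaving out these libraries, in the same order, gave 1722, 2047, 1569, 1486 and 1572. The groups overlapped for all 38 genes (beside 5.29 % of all genes without overlap and higher, and 5.91 % lower). Cdk1, which rose with stimulation under 5 % O2, had a difference of -0.10 ± 0.07 under 1 % O2 (adjusted p = 0.378).

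The difference between the O2 effects in stimulated and unstimulated myotubes was itself tested in the same fit (the interaction of O2 and stimulation). Of all genes tested 11.3 % passed in either direction, 5.88 % higher and 5.43 % lower, and of the mitotic genes 0 were higher and 2 were lower (6 lower when the length slope of the libraries entered as a covariate and 1 at a threshold of 0.01). The number of all genes that passed was 1645 in the fit reported, 1800 with the length slope and 830 at 0.01. Cdk1 had an interaction of -0.48 ± 0.10 (adjusted p = 0.00198) and Ccna2 of -0.35 ± 0.10 (adjusted p = 0.0206). Both genes rose with 1 % O2 alone and with stimulation alone, and with both combined they were at 484.2 and 660.0, neither past the test against 1 % CTRL or 5 % STIM. Ccnb1 rose with stimulation under 5 % O2, was at 303.8 and 340.4 in 1 % CTRL and 1 % STIM, and did not pass the test of interaction (-0.19 ± 0.11, adjusted p = 0.280). In limma, edgeR, DESeq2 and voom alike 0 mitotic genes fell with stimulation at either O2 level and 0 had a higher interaction, and in limma 0 did so at an unadjusted p under 0.05. The stimulation comparisons share their control libraries with the O2 comparisons, so these values are not independent of each other.

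Ratios of 2 genes within a library do not depend on the scaling of libraries, and they separated the O2 levels. The pairs were chosen after their values were seen, so the ratios are given as a description. Cdk1 to Ccnb1 was 0.824 ± 0.060 in 5 % CTRL and 0.837 ± 0.070 in 5 % STIM, and 1.72 ± 0.18 in 1 % CTRL and 1.42 ± 0.11 in 1 % STIM. The 12 libraries under 5 % O2 lay between 0.761 and 0.926 and the 12 under 1 % O2 between 1.29 and 1.92. Ccna2 to Ccnb1 was 1.34 ± 0.08, 1.26 ± 0.10, 2.32 ± 0.20 and 1.94 ± 0.11 in the same order of groups. For the Aurora kinases, Aurkb to Aurka was 0.434 ± 0.087, 0.399 ± 0.059, 0.761 ± 0.110 and 0.577 ± 0.044. In this ratio the 5 % CTRL and 1 % STIM libraries overlapped, while within the unstimulated and within the stimulated libraries the O2 levels were separate. Ratios also leave out the part of the spread that both genes of a pair shared: 1 % CTRL replicate 1 stood highest in many single genes but had a Cdk1 to Ccnb1 ratio of 1.77.

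**Figure D3:**
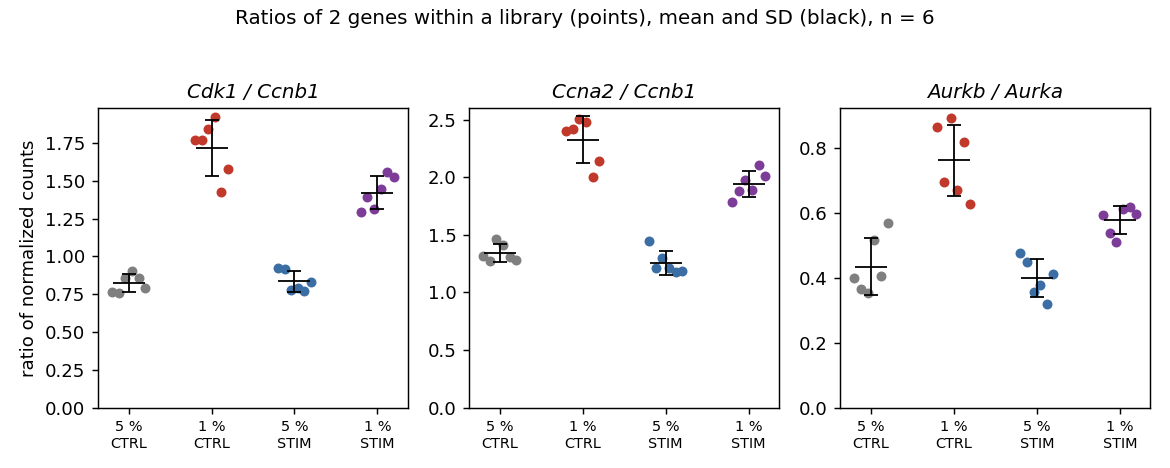
Ratio of the normalized counts of 2 genes within each library (y axis, from 0) by group (x axis), for Cdk1 over Ccnb1, Ccna2 over Ccnb1 and Aurkb over Aurka. Points are libraries and black bars are mean and SD (n = 6), and the Cdk1 to Ccnb1 points lie between 0.761 and 0.926 under 5 % O2 and between 1.29 and 1.92 under 1 % O2.

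Libraries of a group also differed in most mitotic genes at once. The mean of log2(normalized count + 1) over the 38 genes, each centred on its own mean over all libraries, was -0.08 ± 0.06 and -0.02 ± 0.15 in the unstimulated libraries under 5 % O2 and 1 % O2, and 0.08 ± 0.10 and 0.01 ± 0.13 in the stimulated ones. Between 1 % CTRL and 5 % CTRL this mean differed by 0.061, and by 0.023 to 0.14 in 3 alternatives, rescaling among them. Between 1 % STIM and 5 % STIM it differed by -0.064, and by -0.064 to 0.0057 in the alternatives. Single libraries reached 0.24 (1 % CTRL replicate 1) and -0.16 (1 % STIM replicate 1). In 1 % CTRL, 35 of 38 genes lay above the mean of the group in replicate 1 and again in replicate 5, but 3 of 38 in replicate 3. In 1 % STIM, 35 of 38 lay above it in replicate 2 and 2 of 38 in replicate 1. The 5 % STIM group showed the same, with 36 of 38 in replicate 3 and 2 of 38 in replicate 6. In 5 % CTRL the movement was smaller, with 11 of 38 (replicates 3 and 6) to 31 of 38 (replicate 4) and library means between -0.14 and -0.0054. The mitotic genes together took 0.0637 ± 0.0026 % of the normalized counts of a library in 5 % CTRL and 0.0713 ± 0.0081 % in 1 % CTRL, and with stimulation 0.0717 ± 0.0046 % under 5 % O2 and 0.0735 ± 0.0065 % under 1 % O2.

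**Figure D4:**
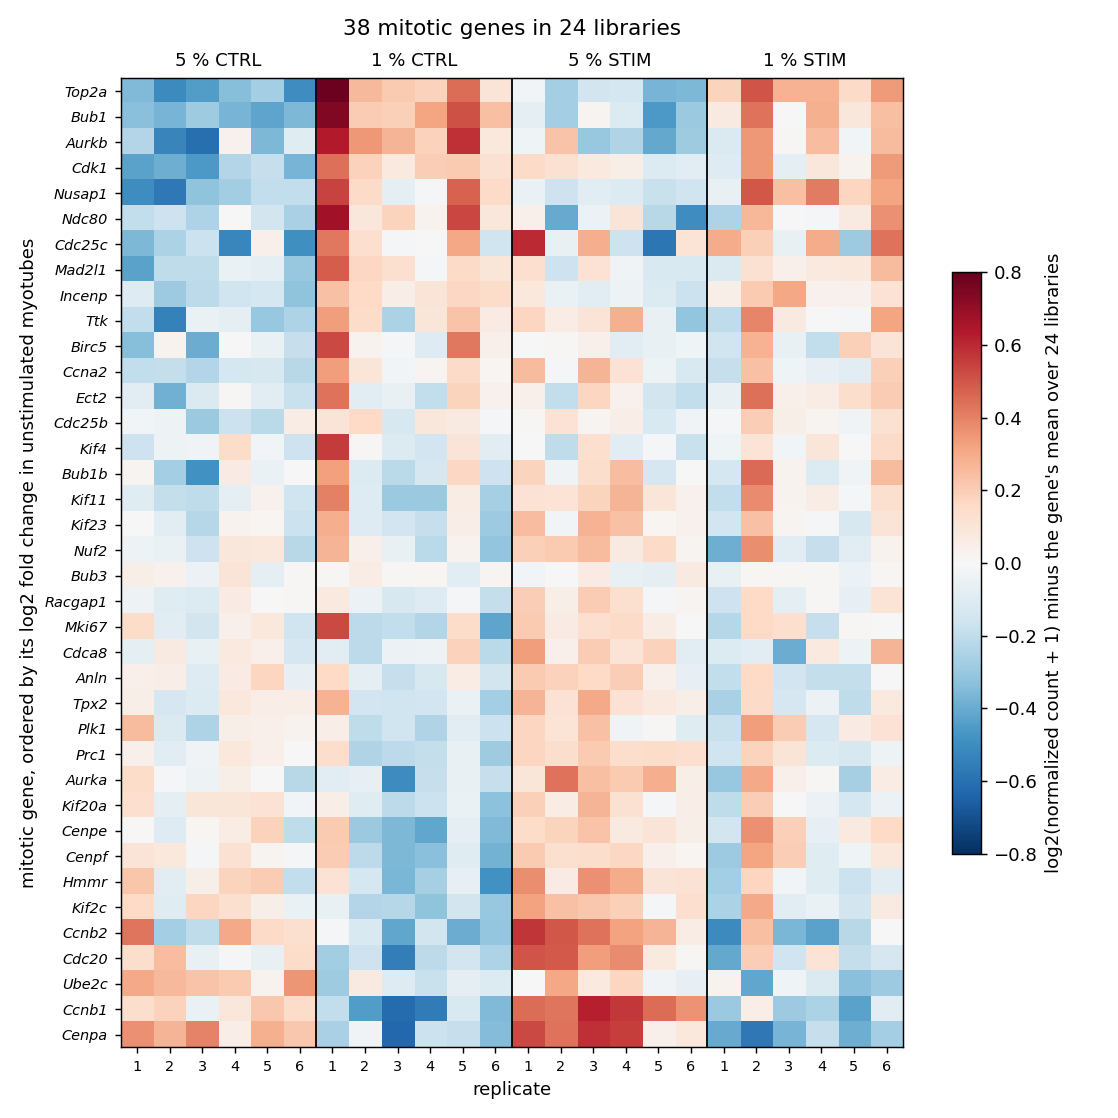
Deviation of log2(normalized count + 1) of each mitotic gene (rows, ordered by the unstimulated O2 effect) from the mean of that gene over all 24 libraries (columns, 6 replicates in each of 4 groups). Colour runs from -0.8 (blue) to 0.8 (red) in log2 units, and 1 % CTRL replicate 1 and 1 % STIM replicate 2 are the reddest columns, with mean deviations of 0.24 and 0.22.

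Levels were also set per length, taking the merged exons of all annotated transcripts of a gene as its length, so their order is approximate. Per kb of exon, the mean normalized count in 5 % CTRL ran from 239.8 for Bub3 to 6.69 for Cdc25c. Tpx2 (171.9), Racgap1 (169.5) and Kif20a (160.9) followed Bub3. By normalized count without length, Bub3 (1680) was followed by Top2a (1264), Mki67 (1250) and Anln (1218). The genes that rose and those that fell in unstimulated myotubes had median exon lengths of 4354 and 4350.5 bases, and across the 38 genes exon length and log2 fold change in unstimulated myotubes had an r of 0.09. Some members share sequence with other genes. Ccnb1 shared 18.9 % of its 75-base words with other genes, among them the pseudogene Ccnb1-ps, which had a mean normalized count of 1.03 in 5 % CTRL and less in the other groups. Kif20a shared 23.3 % with Cdc23, and Prc1 7.87 %, mainly with Rccd1 on the opposite strand, which rose from 218.6 to 315.6 while Prc1 fell. Ccna2 shared 10.8 % with Exosc9 on the opposite strand, which was at 1130 in 5 % CTRL and 1104 in 1 % CTRL and did not pass the test. Kif4 shared 13.8 % with Pdzd11 on the opposite strand, which rose from 1016 to 1099. Counts of these genes are uncertain to that extent.

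Other genes of these processes moved to different extents under 1 % O2. Of 69 further mitotic genes in unstimulated myotubes, 43 rose and 7 fell, with a median of 0.33 (25 rose and 8 fell in stimulated myotubes), so that 72.5 % and 47.8 % were called, beside 59.9 % and 57.4 % of all genes. Cenpk (1.35 ± 0.18) and Oip5 (1.18 ± 0.22), a subunit of the inner kinetochore and a factor that loads CENPA, and the centriole protein Stil (1.31 ± 0.09) rose most. Of 16 genes of condensin and cohesin, the rings that fold and hold chromatids, 11 rose and 1 fell (75 % called), or 15 and 0 in stimulated myotubes (93.8 %), led by the condensin subunits Ncaph (1.08 ± 0.08), Ncapg2 (0.96 ± 0.09) and Ncapd3 (0.88 ± 0.06). Of 16 subunits and coactivators of the APC/C, 6 rose and 3 fell, with a median of 0.02 (6 and 2 in stimulated myotubes), and the shares called, 56.2 % and 50 %, lay near or below those of all genes. The largest of these were Fzr1 (0.46 ± 0.05), the activator that keeps the APC/C on in G1, Anapc11 (0.25 ± 0.08) and Cdc16 (-0.19 ± 0.03).

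Among the regulators of the G2/M genes, of which 22 were listed, 11 rose and 3 fell in unstimulated myotubes (12 and 3 in stimulated myotubes), and the share called in unstimulated myotubes, 63.6 %, lay near the 59.9 % of all genes. In stimulated myotubes 68.2 % were called, beside 57.4 % of all genes. Mybl2, the activating partner of MuvB, rose from 84.4 to 267.6 (1.68 ± 0.12, adjusted p = 2.68e-13), and Rbl1 (p107), a partner in its repressing form, from 227.4 to 542.7 (1.24 ± 0.08). Foxm1, the activator of cyclin B transcription in G2, did not pass the test (503.1 and 493.2, -0.04 ± 0.08). The inhibitory kinases rose, Pkmyt1 from 40.7 to 87.0 (1.09 ± 0.17) and Wee1 from 153.4 to 227.5 (0.57 ± 0.09), and so did Cdc25a (0.44 ± 0.05). Neither Cdkn1a (p21), at 37856 and 37514, nor Trp53 (p53), at 1854 and 1901, passed the test. The 3 regulators that fell were Nfya (-0.53 ± 0.03) and Nfyc (-0.21 ± 0.04), subunits of the factor that binds CCAAT, and E2f4 (-0.17 ± 0.04).

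S phase genes moved in 1 direction. All 44 genes of S phase and replication rose under 1 % O2 in unstimulated myotubes and in stimulated myotubes, with medians of 1.10 and 0.81, and in the unstimulated comparison all 44 were without overlap. Of all genes tested 29.4 % and 29 % rose in these comparisons, and 18.2 % were higher without overlap in the unstimulated comparison. Cdc6, which licenses origins, went from 75.7 to 631.7 (3.06 ± 0.10), and Chaf1b (2.46 ± 0.11) and Uhrf1 (2.45 ± 0.09) followed. Under 1 % O2, stimulation lowered 31 of these 44 genes and raised 0, beside 10.8 % and 11.5 % of all genes tested. The lists were compiled with earlier results of these data known, so their counts describe the lists and support no ranking of processes.

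**Figure D5:**
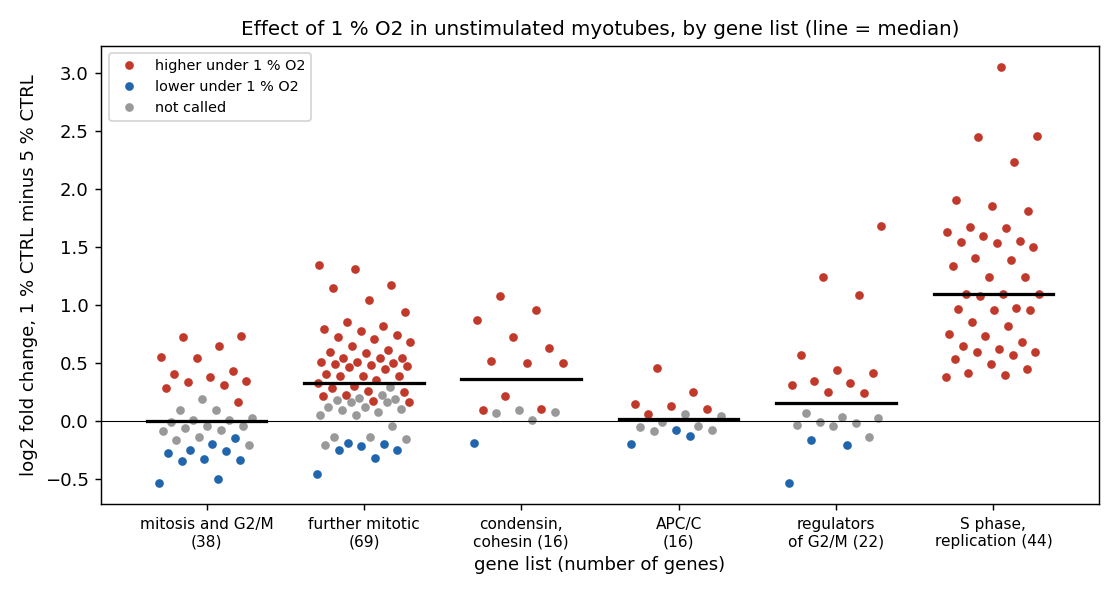
Log2 fold change of single genes (points) under 1 % O2 in unstimulated myotubes (y axis) for the 38 mitotic genes and 5 further lists (x axis, with the number of genes). Red and blue mark genes that passed the test and black lines are medians, which lie at 0.0016 for the mitotic genes, 0.33 for the further mitotic genes and 1.10 for the S phase genes.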

How the data were processed

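Stranded poly(A) libraries were sequenced as single-end reads. Per the labels and methods, reads were checked with FastQC 0.11.7, aligned to GRCm38 with STAR 2.5.4b and quantified with RSEM 1.3.0. The deposited signal is the read count of a gene divided by the DESeq2 size factor of the library, made by the authors. A second deposited table holds the authors' own comparisons and was not used. The 14541 genes that reached a value of 10 in 6 or more of the 24 libraries were tested. log2(normalized count + 1) entered 1 limma 3.58.1 fit of the 4 groups (R 4.3.3, eBayes with trend and robust), so fold changes are on that scale and understate the change of low genes. Alternatives included edgeR 4.0.16 and DESeq2 1.42.0 on whole reads recovered from the steps between values. Groups follow the labels. The members and gene lists were chosen with earlier results of these data known. The fit was tested on simulated data: for 1 % CTRL against 5 % CTRL over 14541 genes it recovered 65.7 % of genes changed 1.25-fold, 72.7 % at 1.5-fold and 89.7 % at 2-fold. Only 67, 55 and 78 genes were changed by these amounts, and 4.35 % of the genes called were false. In the data 59.9 % of genes passed, and the adjusted p depends on that share, so these rates need not hold there. Genes named with full values were the 6 called members with the largest fold change in each direction and members named for their role. Libraries of a group differed by more than counting error. Exon lengths and overlaps were from GENCODE M21.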

Additional observations from a re-analysis of the deposited data

Results flagged for a closer look

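In 7 of the 168 sets of 6 libraries examined for the mitotic genes and ratios, 1 library lay far from the other 5, and all 7 were in 1 % CTRL. If sets were independent, about 1 in 20, or 8.4 over all 4 groups, would by chance. Libraries moved in many genes at once, so the sets are not independent. The 8.4 is also no measure for 1 group. In replicate 1, the normalized count was 607 for Cdk1 (471 to 516 in the others), 625 for Mad2l1 (442 to 502), 391 for Kif4 (239 to 285) and 975 for Tpx2 (664 to 772). In replicate 3, Aurka was at 177 (221 to 241) and Cdc20 at 167 (203 to 223). In replicate 5, Bub3 was at 1570 (1680 to 1730). The O2 effect differed between stimulated and unstimulated myotubes by an interaction test for Cdk1 (-0.48) and Ccna2 (-0.352).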

How the results depend on the processing

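Of 58 results for single mitotic genes, 34 kept their direction and their side of the threshold in every alternative run. Rescaling to the same total gave 5 lower in unstimulated myotubes, 8 higher and 6 lower in stimulated myotubes, 11 higher with stimulation under 5 % O2 and 3 under 1 % O2. Of all genes called after rescaling, 5670 of 9048, 5466 of 8648, 1860 of 2993 and 2142 of 3435 were higher in these comparisons. A threshold of 0.01 gave 6 lower in unstimulated myotubes, 0 higher with stimulation under 1 % O2 and 1 lower interaction. With DESeq2, stimulation gave 5 higher under 5 % O2 and 2 under 1 % O2, and voom gave 5 under 5 % O2. With the length slope as covariate, these were 18 and 2, and 6 interactions were lower. Fitting the compared groups alone gave 14 and 0. Of all genes, stimulation under 5 % O2 raised 1399 with DESeq2, 1405 with voom, 1725 with the length slope and 1521 with the groups alone. Under 1 % O2 it raised 1702 (DESeq2), 1890 (length slope) and 1491 (groups alone). Without 1 % CTRL replicate 1 and 1 % STIM replicate 3, an alternative chosen after seeing the data, 5 rose with stimulation under 1 % O2. Leaving out 1 library gave 3 to 7 higher with stimulation under 5 % O2 and 1 to 6 under 1 % O2. The cause of these changes was not tested.

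Reversed signs concerned genes that did not pass the test in the fit reported. In unstimulated myotubes Bub3 became 0.076 after rescaling, 7.25e-05 with edgeR and 0.00068 with voom, and -0.022 to 0.014 when 1 library was left out. Mki67 became 0.036 after rescaling, 0.013 with the length slope and -0.16 to 0.027 when 1 library was left out. In stimulated myotubes Ccna2 became 0.0033 and Bub3 0.063 after rescaling, and Plk1 -0.044 with the length slope and -0.025 without 1 % CTRL replicate 1 and 1 % STIM replicate 3. When 1 library was left out, Plk1 lay between -0.052 and 0.051, Bub3 between -0.023 and 0.0072, and Cdc25c between -0.0095 and 0.23.

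Replicate numbers are shared between groups, but same-numbered libraries did not deviate together: of 36 pairs, 2 correlations were over 0.1 (-0.148 to 0.155), and 9 libraries correlated best with their own number. With the replicate number as a block, 13 genes were higher and 10 lower in unstimulated myotubes, 5 and 12 in stimulated myotubes, 4 higher with stimulation under 5 % O2, 1 under 1 % O2 and 2 lower in the interaction. Precision is limited by 6 libraries per group and, for Cdc25c, by about 40 reads per library.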
